A study of Homo sapiens with 9 samples.

Results

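This account follows 38 genes of autophagy and the lysosome in a human endothelial cell line that lacks CCM3. They were picked by symbol, with earlier results of these data known. All 38 symbols were found among the 28514 symbols of the count table, and all 38 passed the filter on low counts that left 13802 genes for testing. The genes cover the ULK kinase complex that starts autophagy, the lipid-transfer proteins, the class III PI3-kinase and the proteins that read its lipid product. They also cover the conjugation machinery, the ATG8 family, cargo receptors, the transcription factors TFEB and TFE3, and proteins of the lysosomal membrane, lumen and proton pump.

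RNA was sequenced from 9 libraries of CI-huVEC, a line of human umbilical vein endothelium that was immortalized, all at passage 31. In 3 libraries (KO+FN), lines edited with CRISPR/Cas9 in exon 3 of CCM3, genotype CCM3 -/-, had grown for 48 h on fibronectin, a matrix protein, at 5 µg/cm2. The KO group held the same edited lines without fibronectin, numbered 21, 22 and 23 in the titles. The WT group held wild-type libraries 1, 2 and 3 without treatment. No wild-type cells on fibronectin were analysed here, so the fibronectin comparison concerns edited cells alone. The edited lines are called clones below, although the labels give 1 clone name, HKO, to all 9 libraries, wild-type included. The labels do not say whether the WT libraries came from separate lines or from cultures grown independently. Part of the spread behind the p-values may therefore be technical, and clonal origin and genotype cannot be told apart.

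Autophagy wraps cytoplasm in a double membrane, the autophagosome, and delivers it to lysosomes for breakdown. Starvation or stress releases the ULK kinase from inhibition by mTORC1, the class III PI3-kinase then marks the forming membrane with PI3P, and a pair of ubiquitin-like conjugation reactions attach ATG8 proteins such as LC3 to it. Cargo receptors tie selected cargo to those ATG8 proteins. TFEB and TFE3, held in the cytoplasm by active mTORC1, enter the nucleus when it is off and activate many lysosomal and autophagy genes through promoter elements built around the letters CACGTG. CCM3, listed as PDCD10, is mutated in a familial form of cerebral cavernous malformations, and autophagy in CCM-deficient endothelium has been a subject of study.

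The promoter letters that TFEB and TFE3 are known to bind are shown here for the genes that carry them, because both factors rose in the edited cells. Promoter windows of 250 bases before to 50 bases after the start, from RefSeq on build GRCh38.p14, were found for 33 of the 38 genes. HEXA, PSAP, LAMP2, UVRAG and ATP6V1A had no window. CACGTG, which reads the same on both strands, occurred in 6 of the 33 windows (18.2%), against 7.26% of all 35116 windows and 12.5% of the 9579 tested genes with a window. The extended form TCACGTG, searched on both strands and always overlapping the shorter one, occurred in the same 6 windows (18.2%), against 3.71% of all windows and 7.13% of tested genes. Stretches that end at the base before the start are printed below, 5′ to 3′ on the strand of the gene, with each CACGTG in capitals.
LAMP1: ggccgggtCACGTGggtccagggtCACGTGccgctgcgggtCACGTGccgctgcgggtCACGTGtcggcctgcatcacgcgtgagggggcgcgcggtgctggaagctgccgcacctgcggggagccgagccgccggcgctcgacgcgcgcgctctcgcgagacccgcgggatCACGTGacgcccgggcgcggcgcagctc
GAA: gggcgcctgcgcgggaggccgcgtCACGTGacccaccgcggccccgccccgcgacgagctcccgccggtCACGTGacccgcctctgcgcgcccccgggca
MCOLN1: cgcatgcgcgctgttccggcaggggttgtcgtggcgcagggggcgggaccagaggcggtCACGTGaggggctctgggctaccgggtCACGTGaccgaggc
ATP6V0D1: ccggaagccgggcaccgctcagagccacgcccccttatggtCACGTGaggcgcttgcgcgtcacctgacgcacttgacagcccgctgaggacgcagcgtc
ATG3: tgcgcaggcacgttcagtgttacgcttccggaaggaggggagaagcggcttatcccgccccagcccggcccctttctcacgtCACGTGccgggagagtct
ATG14: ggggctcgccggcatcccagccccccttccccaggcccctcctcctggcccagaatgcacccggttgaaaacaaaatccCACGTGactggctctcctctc
LAMP1 lies at chr13:113297039-113297238 on the plus strand, GAA at chr17:80101481-80101580 on the plus strand and MCOLN1 at chr19:7522524-7522623 on the plus strand. ATP6V0D1 lies at chr16:67481158-67481257, ATG3 at chr3:112561963-112562062 and ATG14 at chr14:55411831-55411930, all 3 on the minus strand. LAMP1 held 6 copies, of which 5 are shown and the last begins at position -1 and crosses the start. GAA, MCOLN1 and ATG3 held 2 copies each, the second copy of ATG3 lying after the start at position 6, and ATP6V0D1 and ATG14 held 1 each. These sequences are reference letters, whereas the counts were made on build GRCh37, and a match is a description, not a site of binding.

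Total counts per library ran from 24406001 to 33971610. Levels in CPM below are counts scaled to library size with TMM normalization. PDCD10, the edited gene, kept much of its mRNA, with 37.8, 35.3 and 36.1 CPM in KO+FN, 42.3, 35.6 and 37.6 CPM in KO and 46.3, 48.4 and 53.1 CPM in WT. It was lower in each edited library than in each WT library (KO against WT log2 fold change -0.36, SE 0.08, adjusted p = 0.00186 in edgeR), and a count per gene does not reveal the edit. All 10 endothelial marker genes were detected. Their summed level was 5980 to 6960 CPM in KO+FN, 5930 to 6350 CPM in KO and 2410 to 2670 CPM in WT. VWF was the largest part of that sum in every edited library, at 2560 to 3470 CPM, against 275 to 372 CPM in WT. Of the 10, 7 rose in KO in edgeR, VWF most with a log2 fold change of 3.04, while CDH5 (-0.06), ERG (-0.10) and EMCN (-1.34) were not called. Summed markers of smooth muscle and pericytes were 8.77 to 9.6 CPM in KO+FN, 9.72 to 10.5 CPM in KO and 84.9 to 93.4 CPM in WT, where RGS5 gave nearly all of it. The 5 fibroblast markers each stayed under 1 CPM in every library, with LUM at 0 throughout. Leukocyte markers summed to 32.2 to 34.8 CPM in KO+FN, 27.4 to 28.5 CPM in KO and 17.3 to 18.0 CPM in WT, nearly all CD68, while epithelial markers summed to 542 to 636 CPM in KO+FN, 491 to 523 CPM in KO and 774 to 819 CPM in WT. The keratin KRT7 alone fell (-1.49 in KO), and KRT18, KRT8 and EPCAM rose (0.62, 0.48 and 1.0). The part of these shifts in the results below was not tested, and in bulk RNA fewer cells of a type and less RNA per cell cannot be told apart.

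Levels per length, as the deposited FPKM values, ran from PSAP at the top to TFEB at the bottom of the WT order. PSAP, which encodes the precursor of the saposins that help degrade sphingolipids, stood first with 388 ± 14 FPKM in KO+FN, 366 ± 13.3 FPKM in KO and 313 ± 10.6 FPKM in WT (SD, n = 3 each). GABARAP, an ATG8 protein, followed with 256 ± 19.2 FPKM in KO+FN, 235 ± 10.5 FPKM in KO and 225 ± 10.1 FPKM in WT (SD, n = 3 each). TFEB was the lowest in KO and WT, with 1.71 ± 0.167 FPKM in KO+FN, 1.35 ± 0.238 FPKM in KO and 0.932 ± 0.153 FPKM in WT (SD, n = 3 each), so WT means spanned a 336-fold range. Of 37 pairs of neighbours in the WT order, 18 overlapped between libraries and their order is not settled, SQSTM1 and GRN among them. GRN stood at rank 3 in KO+FN and in KO and at rank 5 in WT, HEXA at rank 9 in KO+FN and in KO and at rank 14 in WT, and WIPI1 at rank 24 in KO+FN and in KO and at rank 17 in WT.

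**Figure D1:**
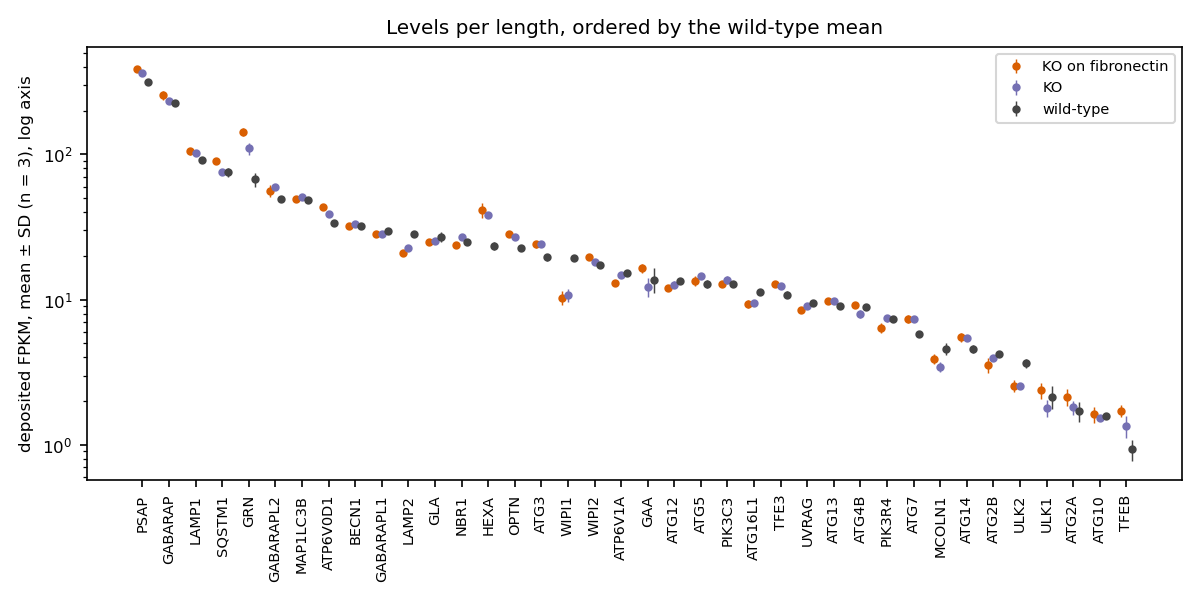
Deposited FPKM of the 38 genes on a log axis, ordered along the x axis by the WT mean, with KO+FN (orange), KO (purple) and WT (black) side by side. Points are means of 3 libraries and bars are 1 SD; PSAP tops every group, and the KO and WT points of GRN, HEXA and WIPI1 stand well apart.

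The comparison of KO with WT asks how loss of CCM3 went with the mRNA of this machinery. Of the 38 genes, 14 rose, 5 fell and 19 were not called at an adjusted p under 0.05 in edgeR, so 50% were called, beside 50.1% of all genes tested. The share that rose was 36.8%, beside 23% of all genes, and the share that fell was 13.2%, beside 27.0%. The changes were small. The median log2 fold change was 0.08 (all genes -0.03), the median size was 0.16 (all genes 0.27, and 0.23 among the 10426 genes within the same range of mean CPM), and 0 of 38 genes changed 2-fold or more, against 13.2% of all genes and 7.65% of those in the same range. KO and WT libraries did not overlap for 25 of the 38 genes, 18 higher and 7 lower in KO, beside 28.2% and 33.3% of all genes in those directions. The 38 genes thus did not stand out from the rest by how often they were called. Counts by role, given below, rest on few genes each, and no role was tested as a set. A call was kept in all 14 alternative analyses for 12 of the 19 genes. Leaving out 1 library ended the call of ATG5 (WT 1, WT 2, KO 21, KO 22 or KO 23), NBR1 (WT 2, WT 3, KO 21, KO 22 or KO 23), ATG16L1 (WT 1 or KO 22), LAMP1 (WT 3 or KO 22), TFEB (WT 2 or KO 23), MCOLN1 (KO 21) and ATP6V0D1 (WT 3), with adjusted p-values of at most 0.131 in edgeR.

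**Figure D2:**
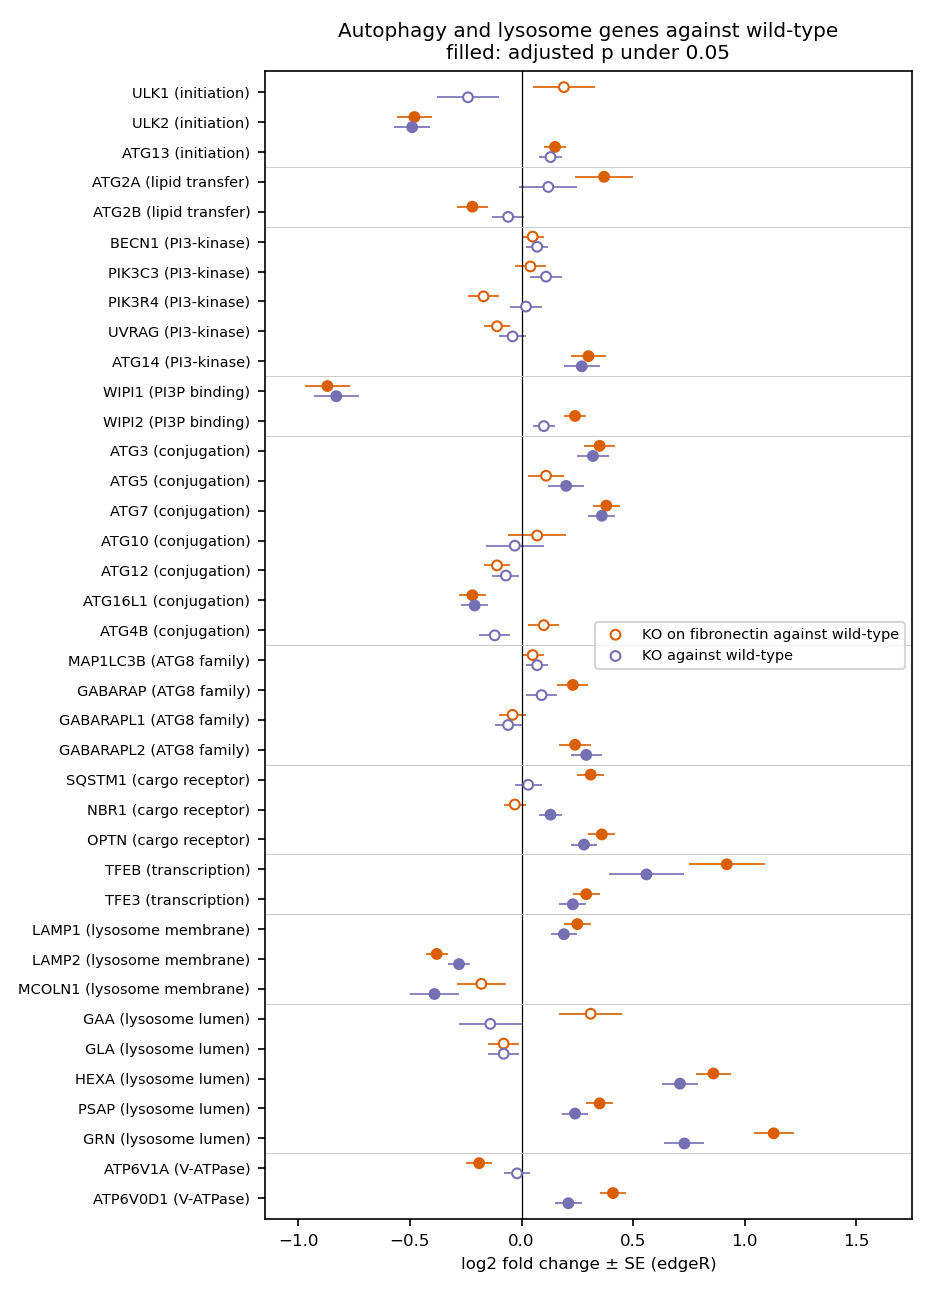
Log2 fold change of each of the 38 genes, by role from top to bottom, for KO+FN against WT (orange) and KO against WT (purple), with bars of 1 SE from edgeR. Filled points passed an adjusted p under 0.05; GRN, HEXA and TFEB lie farthest to the right and WIPI1 farthest to the left.

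Both transcription factors of lysosome biogenesis rose. TFEB had 5.36, 4.84 and 5.86 CPM in KO+FN, 3.37, 4.34 and 4.83 CPM in KO and 3.03, 2.29 and 3.18 CPM in WT. All 6 edited libraries lay above all 3 WT libraries, although the gene had as few as 68 counts in 1 library. Its log2 fold change was 0.56 (SE 0.17, adjusted p = 0.0156) for KO against WT and 0.92 (SE 0.17, adjusted p = 0.000432) for KO+FN against WT in edgeR. Without WT 2 or without KO 23 the KO call was lost, with an adjusted p of up to 0.0759 in edgeR. TFE3, its close relative, had 51.8, 53.2 and 53.2 CPM in KO+FN, 48.0, 50.3 and 52.8 CPM in KO and 42.3, 45.5 and 41.3 CPM in WT. It was again higher in every edited library, by 0.23 for KO (SE 0.06, adjusted p = 0.00893) and by 0.29 for KO+FN (SE 0.06, adjusted p = 0.00138) on the log2 scale in edgeR. The KO+FN call of TFE3 was lost after a correction for GC content, described below (0.12, adjusted p = 0.0847 in edgeR).

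In the lysosomal lumen 3 of 5 genes rose, and 2 of them, GRN and HEXA, had the highest log2 fold changes of the 38 genes in KO. GRN, which encodes progranulin, a secreted and lysosomal glycoprotein, had 428, 364 and 397 CPM in KO+FN, 270, 302 and 330 CPM in KO and 190, 194 and 160 CPM in WT. The 3 groups did not overlap at all, with KO+FN highest and WT lowest. In edgeR the log2 fold change was 0.73 for KO against WT (SE 0.09, adjusted p = 2.71e-05) and 1.13 for KO+FN against WT (SE 0.09, adjusted p = 4.64e-07). HEXA, the alpha subunit of beta-hexosaminidase, which degrades GM2 ganglioside, had 132, 132 and 106 CPM in KO+FN, 114, 112 and 108 CPM in KO and 64.0, 72.8 and 67.2 CPM in WT. KO+FN and KO libraries overlapped and all lay well above WT, at 1.64-fold higher in KO (log2 fold change 0.71, SE 0.08, adjusted p = 9.55e-06) and 1.81-fold higher in KO+FN (0.86, SE 0.08, adjusted p = 1.38e-06) in edgeR. PSAP, already the most abundant, had 1310, 1360 and 1280 CPM in KO+FN, 1170, 1240 and 1270 CPM in KO and 1030, 1060 and 1010 CPM in WT. It rose by 0.24 in KO and by 0.35 in KO+FN on the log2 scale (SE 0.06 each, adjusted p = 0.00257 and 0.000136 in edgeR).

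The other lumenal enzymes did not follow. GAA, the lysosomal alpha-glucosidase that breaks down glycogen, had 74.3, 69.9 and 79.2 CPM in KO+FN, 45.1, 58.4 and 60.3 CPM in KO and 69.5, 63.6 and 47.7 CPM in WT. KO and WT overlapped widely, with a log2 fold change of -0.14 (SE 0.14, adjusted p = 0.435 in edgeR), while KO+FN was not called against WT either (0.31, SE 0.14, adjusted p = 0.0813 in edgeR), its lowest library at 69.9 CPM being level with the highest of WT at 69.5 CPM. GLA, the alpha-galactosidase that is deficient in Fabry disease, ranged only between 41.7 and 49.4 CPM over the 9 libraries, and its log2 fold change was -0.08 (SE 0.07) both for KO and for KO+FN.

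**Figure D3:**
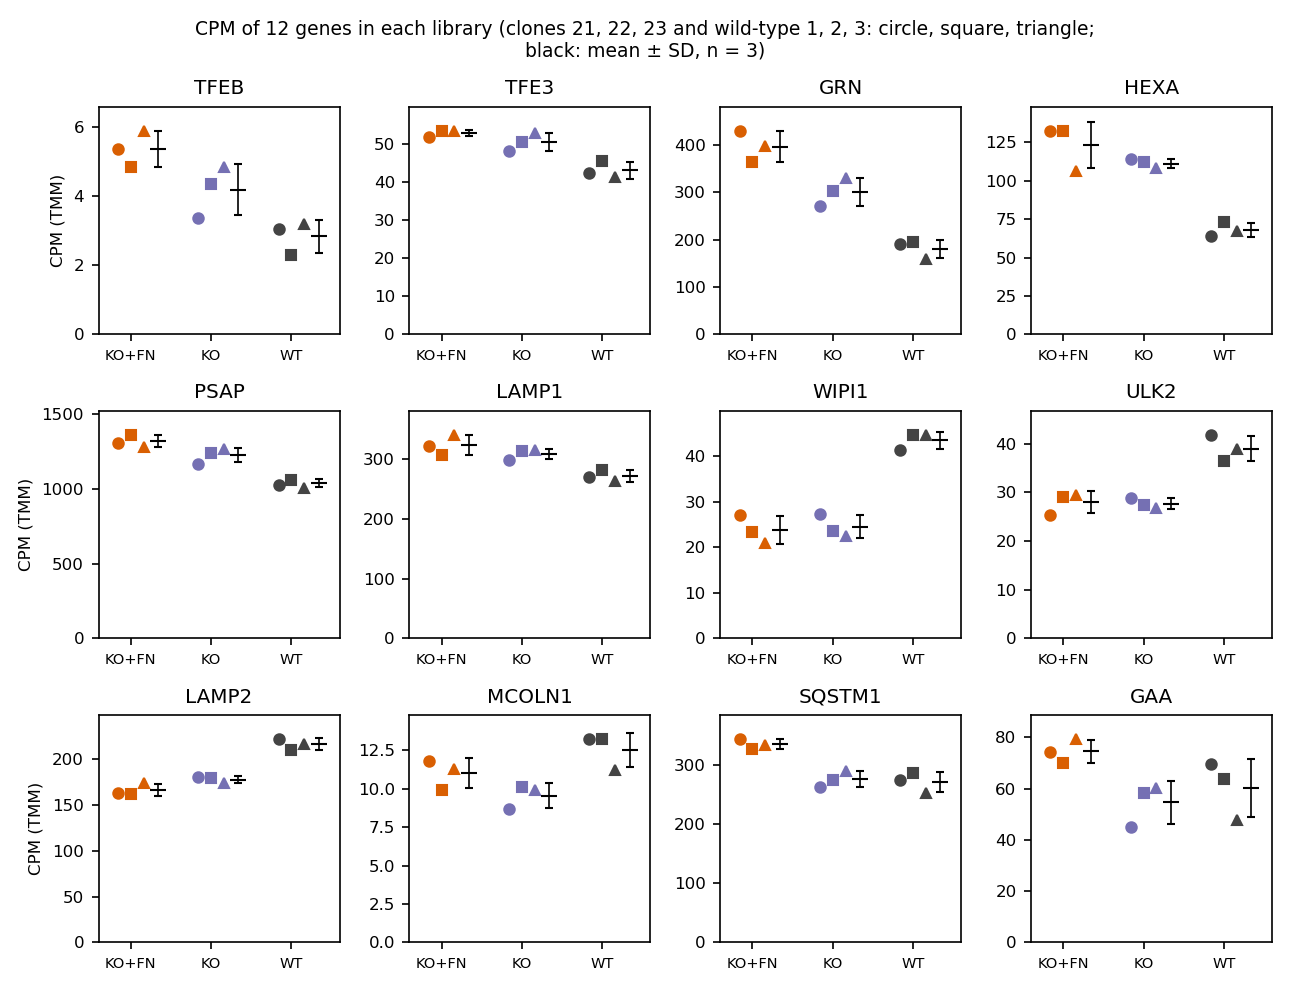
CPM of 12 of the genes in every library, with KO+FN (orange), KO (purple) and WT (black) from left to right. Circle, square and triangle mark clones 21, 22 and 23 or WT libraries 1, 2 and 3, and black bars give mean ± SD (n = 3). TFEB, TFE3, GRN, HEXA, PSAP and LAMP1 stand lowest in WT, WIPI1, ULK2 and LAMP2 stand highest in WT, and SQSTM1 stands highest in KO+FN.

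Of the 3 lysosomal membrane proteins, 1 rose and 2 fell. LAMP1, a major glycoprotein of the membrane, had 322, 306 and 339 CPM in KO+FN, 298, 313 and 314 CPM in KO and 269, 281 and 262 CPM in WT. LAMP2, its relative that also serves chaperone-mediated autophagy, had 163, 162 and 174 CPM in KO+FN, 181, 180 and 174 CPM in KO and 222, 210 and 217 CPM in WT. They moved in opposite directions with no overlap with WT: LAMP1 rose by 0.19 in KO (SE 0.06, adjusted p = 0.0135) and LAMP2 fell by 0.28 (SE 0.05, adjusted p = 0.000588) on the log2 scale in edgeR. On fibronectin the values against WT were 0.25 for LAMP1 (adjusted p = 0.00173) and -0.38 for LAMP2 (adjusted p = 3.93e-05) in edgeR. MCOLN1, the lysosomal calcium channel also called TRPML1, had 11.8, 9.89 and 11.3 CPM in KO+FN, 8.65, 10.1 and 9.89 CPM in KO and 13.2, 13.2 and 11.2 CPM in WT. It fell by 0.39 in KO on the log2 scale (SE 0.11, adjusted p = 0.00883 in edgeR), with an adjusted p of 0.0512 in edgeR when the KO library of clone 21, the lowest, was left out. Its KO+FN libraries lay between KO and WT and overlapped both (log2 fold change against WT -0.18, SE 0.11, adjusted p = 0.156 in edgeR).

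The proton pump that acidifies lysosomes was represented by a subunit of each sector. ATP6V0D1, of the membrane sector, had 99.6, 90 and 93.1 CPM in KO+FN, 78.0, 83.8 and 85.1 CPM in KO and 70.8, 74.4 and 67.9 CPM in WT. The groups were ordered KO+FN, KO, WT without overlap, with log2 fold changes against WT of 0.41 in KO+FN (SE 0.06, adjusted p = 9.09e-05) and 0.21 in KO (SE 0.06, adjusted p = 0.0118) in edgeR. ATP6V1A, the catalytic subunit, had 72.7, 69.7 and 75.1 CPM in KO+FN, 85.1, 80.3 and 78.3 CPM in KO and 84.0, 79.1 and 84.6 CPM in WT. KO and WT overlapped (-0.02, SE 0.06), and KO+FN lay below both (-0.19 against WT, SE 0.06, adjusted p = 0.0149 in edgeR).

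Among the genes that start an autophagosome, the clearest changes were decreases. WIPI1, which binds PI3P on the forming membrane, had 27.1, 23.4 and 21 CPM in KO+FN, 27.3, 23.7 and 22.5 CPM in KO and 41.4, 44.6 and 44.6 CPM in WT. Every edited library lay far below every WT library, and KO was 1.78-fold lower than WT (log2 fold change -0.83, SE 0.10, adjusted p = 8.93e-06 in edgeR) and KO+FN 1.83-fold lower (-0.87, SE 0.10, adjusted p = 4.63e-06). WIPI2, its relative that recruits ATG16L1, had 116, 110 and 107 CPM in KO+FN, 98.3, 102 and 102 CPM in KO and 96.5, 94.9 and 90.5 CPM in WT. It was not called in KO (0.10, SE 0.05, adjusted p = 0.143) and rose in KO+FN (0.24, SE 0.05, adjusted p = 0.00202) in edgeR. The pair thus moved in opposite directions in KO+FN.

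ULK2, a kinase of the initiation complex, had 25.4, 29.1 and 29.4 CPM in KO+FN, 28.9, 27.5 and 26.7 CPM in KO and 41.7, 36.5 and 38.9 CPM in WT. Edited and WT libraries did not overlap, and the fall was 0.49 in KO and 0.48 in KO+FN on the log2 scale (SE 0.08 each, adjusted p = 0.000139 and 0.000146 in edgeR). ULK1, the better-known kinase of the pair, had 14.9, 13.0 and 16.8 CPM in KO+FN, 9.38, 11.7 and 12.2 CPM in KO and 15.5, 12.5 and 11.3 CPM in WT. KO and WT overlapped (log2 fold change -0.24, SE 0.14, adjusted p = 0.174 in edgeR), as did KO+FN and WT. ATG13, which binds both kinases, had 68.6, 73.0 and 68.1 CPM in KO+FN, 69.3, 68.9 and 68.9 CPM in KO and 63.3, 62.4 and 63.2 CPM in WT. Its edited libraries lay above WT in a narrow band, at 0.13 in KO (SE 0.05, adjusted p = 0.0581) and 0.15 in KO+FN (SE 0.05, adjusted p = 0.0299) in edgeR, and its calls changed in 6 of the 14 alternatives for KO and 7 for KO+FN.

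The lipid-transfer proteins ATG2A and ATG2B, which feed lipid to the growing membrane, were not called in KO. ATG2A had 14.9, 15.6 and 18.6 CPM in KO+FN, 11.9, 14.4 and 14.7 CPM in KO and 14.1, 13.3 and 10.6 CPM in WT. ATG2B had 41.6, 51.6 and 47.8 CPM in KO+FN, 52.4, 52.5 and 51.7 CPM in KO and 55.9, 52.8 and 55.1 CPM in WT. On fibronectin ATG2A lay above WT (0.37, SE 0.13, adjusted p = 0.0214) and ATG2B below it (-0.22, SE 0.07, adjusted p = 0.0230) in edgeR, the opposite sign for a pair of related genes. Both calls were lost in some fits that left out 1 library. The ATG2A call was also lost after the correction for GC content described below (0.16, adjusted p = 0.139 in edgeR). The class III PI3-kinase varied little: ATG14, the subunit that directs it to autophagy, was the only one of its 5 genes called. Among all genes 50.1% were called in KO and 58.7% in KO+FN against WT. ATG14 had 29.1, 32.8 and 32.2 CPM in KO+FN, 31.7, 30.3 and 30.2 CPM in KO and 25.1, 23.7 and 27.4 CPM in WT. Its libraries did not overlap with WT, with a rise of 0.27 in KO and 0.30 in KO+FN on the log2 scale (SE 0.08 each, adjusted p = 0.00834 and 0.00364 in edgeR). BECN1, a scaffold subunit, PIK3C3, the lipid kinase itself, PIK3R4, its regulatory subunit, and UVRAG, which directs the complex to endosomes, had log2 fold changes of 0.07, 0.11, 0.02 and -0.04 in KO against WT and 0.05, 0.04, -0.17 and -0.11 in KO+FN against WT, none of them called.

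In the conjugation machinery 3 of 7 genes rose and 1 fell in KO. ATG7, the E1-like enzyme that activates both ubiquitin-like proteins, had 42.6, 47.5 and 44.5 CPM in KO+FN, 44.2, 44.5 and 43.6 CPM in KO and 33.1, 35.2 and 35.1 CPM in WT. ATG3, the E2-like enzyme that passes ATG8 proteins to lipid, had 85.0, 74.1 and 78.6 CPM in KO+FN, 78.7, 80.1 and 75.3 CPM in KO and 57.4, 64.7 and 64.6 CPM in WT. Both were higher in every edited library than in every WT library, ATG7 by 0.36 in KO and 0.38 in KO+FN (SE 0.06 each, adjusted p = 0.000426 and 0.000198), and ATG3 by 0.32 and 0.35 (SE 0.07 each, adjusted p = 0.00153 and 0.000744), on the log2 scale in edgeR. ATG5, which joins ATG12 in the E3-like complex, had 56.0, 47.5 and 54.7 CPM in KO+FN, 57.6, 55.0 and 56.0 CPM in KO and 45.4, 48.7 and 52.9 CPM in WT. KO lay above WT by 0.20 (SE 0.08, adjusted p = 0.0463 in edgeR), and KO+FN overlapped WT. ATG16L1, which places that complex on the membrane, had 37.8, 40.7 and 36.4 CPM in KO+FN, 39.1, 37.8 and 38.9 CPM in KO and 44.5, 45.5 and 44.3 CPM in WT. It fell by 0.21 in KO and by 0.22 in KO+FN on the log2 scale (SE 0.06 each, adjusted p = 0.0126 and 0.00769 in edgeR), without overlap with WT. ATG10, the E2-like enzyme for ATG12, ATG12 itself and ATG4B, the protease that trims ATG8 proteins, were not called in either comparison, with log2 fold changes in KO of -0.03, -0.07 and -0.12.

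The ATG8 family itself moved in part. GABARAPL2 had 76.4, 62.6 and 65.3 CPM in KO+FN, 72.5, 70.2 and 69.7 CPM in KO and 56.5, 59.3 and 57.6 CPM in WT. It was higher in every edited library than in WT, by 0.29 in KO (SE 0.07, adjusted p = 0.00442) and by 0.24 in KO+FN (SE 0.07, adjusted p = 0.0131) on the log2 scale in edgeR. GABARAP had 298, 278 and 251 CPM in KO+FN, 261, 239 and 249 CPM in KO and 221, 240 and 245 CPM in WT. It was called in KO+FN (0.23, SE 0.07, adjusted p = 0.0121) and not in KO (0.09, SE 0.07, adjusted p = 0.321) in edgeR, and KO and WT overlapped. MAP1LC3B, which encodes LC3B, the protein most often followed as an autophagosome marker, ranged between 132 and 147 CPM over the 9 libraries, with a log2 fold change of 0.07 (SE 0.05, adjusted p = 0.283 in edgeR) in KO. GABARAPL1 ranged between 75.4 and 84.9 CPM (-0.06, SE 0.06). MAP1LC3B and GABARAPL1 have near-identical copies, MAP1LC3B2 and GABARAPL3, so their counts may be incomplete.

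Of the 3 cargo receptors, 2 rose in KO and 2 in KO+FN against WT, and only OPTN was called in both. OPTN, optineurin, which links ubiquitin-tagged mitochondria and bacteria to ATG8 proteins, had 127, 121 and 119 CPM in KO+FN, 120, 112 and 116 CPM in KO and 91.1, 99.8 and 96.3 CPM in WT. All edited libraries lay above WT, by 0.28 in KO (SE 0.06, adjusted p = 0.00110) and 0.36 in KO+FN (SE 0.06, adjusted p = 0.000117) on the log2 scale in edgeR. SQSTM1, which encodes p62, the receptor for ubiquitin-tagged aggregates, had 344, 328 and 335 CPM in KO+FN, 263, 276 and 291 CPM in KO and 275, 287 and 253 CPM in WT. KO and WT overlapped widely (0.03, SE 0.06, adjusted p = 0.730), while KO+FN lay above both (0.31 against WT, SE 0.06, adjusted p = 0.000732) in edgeR. NBR1, a relative of p62, had 139, 143 and 144 CPM in KO+FN, 162, 158 and 156 CPM in KO and 146, 143 and 146 CPM in WT. Here KO was the high group (0.13 against WT, SE 0.05, adjusted p = 0.0373 in edgeR), and KO+FN overlapped WT (-0.03, SE 0.05).

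Across all 38 genes, KO+FN against WT gave 17 rises, 6 falls and 15 genes not called, so 60.5% were called, beside 58.7% of all genes tested, with 44.7% risen beside 29% and 15.8% fallen beside 29.6%. GRN alone changed 2-fold or more, at 2.19-fold higher, beside 14.6% of all genes. The libraries did not overlap for 19 genes that were higher and 9 that were lower than WT, beside 31.6% and 32.7% of all genes. ATG13, ATG2A, WIPI2, GABARAP and SQSTM1 were called as risen and ATG2B and ATP6V1A as fallen in KO+FN and not in KO. ATG5 and NBR1 as risen and MCOLN1 as fallen were called in KO and not in KO+FN. Both comparisons share the WT libraries, so this difference in calls is no test of fibronectin. The call was kept in all 14 alternatives for 17 of the 23 genes. Leaving out 1 library ended the call of ATG13 (WT 1, WT 2, WT 3 or KO+FN 22), ATG2A (WT 3 or KO+FN 23), ATG2B (WT 1, WT 3 or KO+FN 21), ATP6V1A (WT 1 or WT 3) and GABARAP (WT 1). It brought in GAA (without WT 1 or KO 21) and PIK3R4 (without KO+FN 22).

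The direct question, whether fibronectin for 48 h changed these mRNAs in edited cells, was put to KO+FN against KO. In the fit of all 9 libraries 0 of 38 genes were called in edgeR, beside 0.00725% of all genes, which is 1 of 13802 (TAGLN, a contractile protein gene, named after its value was seen), and 11 of 38 had an unadjusted p under 0.05, beside 22.3% of all genes. DESeq2 called 5 of the 38, SQSTM1, GAA and GRN as risen and NBR1 and ATP6V1A as fallen. The share of all genes that DESeq2 called is not given here, so whether 5 of 38 stands out cannot be told. KO+FN and KO did not overlap for 10 genes that were higher and 5 that were lower on fibronectin, beside 14.8% and 10.6% of all genes. Within clones, 13 genes were higher on fibronectin in all 3 clones and 8 lower in all 3 (34.2% and 21.1%, beside 25.4% and 22.3% of all genes), with single differences between -0.38 and 0.72 on the log2 scale.

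Since both groups hold the same lines, the clone was also fitted as a block, and then 4 of 38 genes rose and 0 fell in edgeR (10.5%, beside 6.78% of all genes, 4.97% risen and 1.81% fallen). GAA rose by 0.43 (SE 0.08, adjusted p = 0.0139), with differences of 0.72, 0.26 and 0.39 in clones 21, 22 and 23 on the log2 scale. ULK1 rose by 0.40 (SE 0.11, adjusted p = 0.0314), with 0.67, 0.16 and 0.46 in those clones. GRN rose by 0.37 (SE 0.07, adjusted p = 0.0139), with 0.66, 0.27 and 0.27. SQSTM1 rose by 0.26 (SE 0.06, adjusted p = 0.0226), with 0.38, 0.25 and 0.20 in edgeR. All 4 genes were higher on fibronectin in every clone, and most in clone 21. TFEB had 0.67, 0.16 and 0.28 in the same clones and was not called (0.34, SE 0.14, adjusted p = 0.130 in edgeR). Without clone 21 or without clone 22 the block called 3 of the 38 genes, and without clone 23 it called 0. The shares of all genes in these smaller fits are not given here.

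The fibronectin difference, taken with its sign, followed the GC content of the transcript. Across the 38 genes, whose transcripts held between 37.5% and 64.2% GC (median 48.9%), Pearson's r between GC content and the log2 difference of KO+FN against KO was 0.84, and across 9527 genes averaging 5 CPM or more it was 0.77. The genes share these 6 libraries, so r is a description across genes. ULK1, GAA, GRN and SQSTM1 ranked 1, 2, 4 and 8 in GC content among the 38, at 64.2%, 64.1%, 61.8% and 58.0%. Deviations of each library from the mean of all 9, in log2(CPM + 1), correlated with GC content at 0.38, 0.30 and 0.36 in KO+FN, -0.38, -0.09 and 0.07 in KO and -0.10, -0.08 and -0.26 in WT. When the GC trend of each library was removed and the clone kept as a block, an analysis chosen after seeing the data, 0 of the 38 genes were called in edgeR and 0.958% of all genes were. The log2 differences then were 0.14 for GRN, 0.13 for GAA, 0.12 for SQSTM1 and 0.10 for ULK1 (adjusted p = 0.235, 0.275, 0.310 and 0.617 in edgeR). What made the libraries differ in GC content was not tested.

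**Figure D4:**
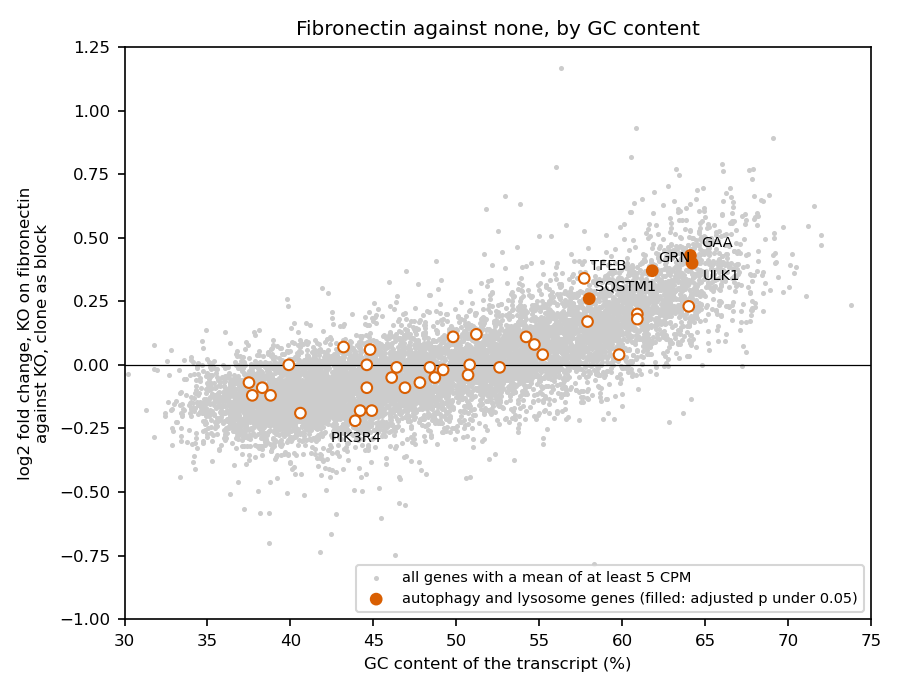
Log2 fold change of KO+FN against KO, with the clone as a block, on the y axis against the GC content of the longest coding transcript on the x axis, for all genes averaging 5 CPM or more (grey) and the 38 genes (orange; filled where the adjusted p was under 0.05). The 38 genes follow the same upward band as the rest, and the 4 filled points lie at its GC-rich end.

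The same correction was applied to the comparisons with WT. For KO against WT, r between GC content and the log2 fold change was 0.09 across the 38 genes, and after correction 20 genes were called, 15 risen and 5 fallen. For KO+FN against WT r was 0.45, and 22 genes were called, 16 risen and 6 fallen. The shares of all genes called in these corrected comparisons with WT are not given here, so whether either count stands out cannot be told. ATG13, ATG2A, TFE3 and ATP6V1A then lost their KO+FN calls, TFE3 with 0.12 on the log2 scale (adjusted p = 0.0847 in edgeR). PIK3C3, ATG5 and MCOLN1 were called in their place, MCOLN1 with -0.37 (adjusted p = 0.00111 in edgeR). Of the 23 genes called in KO+FN against WT, 10 had a log2 fold change that moved by over 1.5 times. Beside 4 that lost the call, these were SQSTM1 (0.31 before and 0.15 after correction), LAMP1 (0.25 and 0.13, adjusted p = 0.0499 after it in edgeR), LAMP2 (-0.38 and -0.17), WIPI2 (0.24 and 0.12), PSAP (0.35 and 0.22) and ATP6V0D1 (0.41 and 0.25). In KO against WT 1 of 19 moved as much, LAMP2 (-0.28 and -0.18). The largest changes moved less, and GRN, TFEB, HEXA and WIPI1 had corrected log2 fold changes of 0.94, 0.77, 0.77 and -0.90 in KO+FN and of 0.81, 0.56, 0.66 and -0.87 in KO.

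Differences among the 3 clones, tested with the treatment as a covariate over the 6 edited libraries, were called for 0 of the 38 genes in edgeR, beside 3.79% of all genes. The smallest adjusted p was 0.179, and 1 gene (2.63%) had an unadjusted p under 0.05, beside 13.5% of all genes. DESeq2 also called 0. Up to 3 of the 38 were called when 1 library was left out, and clone 21 was the line left out in each such case. The shares of all genes in those cases are not given here.

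The rest of the pathway, 144 tested genes of 155 in the table from 6 lists, was scored with the same fit. In KO against WT 62 rose and 25 fell (60.4% called, beside the 50.1% of all genes), and 10 changed 2-fold or more (6.94%, beside 13.2% of all genes). In KO+FN against WT 72 rose and 28 fell (69.4% called, beside 58.7% of all genes). With the clone as a block, 12 rose (8.33%) and 3 fell (2.08%) on fibronectin, beside 4.97% and 1.81% of all genes. For KO against WT the counts of each list below stand beside 23% risen and 27.0% fallen among all genes, whose median log2 fold change was -0.03. These lists follow textbook roles and were drawn up with earlier results of these data known.

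Of the other lysosomal membrane proteins 12 of 22 rose (54.5%) and 1 fell (4.55%) in KO, with a median log2 fold change of 0.22, and of the other pump subunits 10 of 19 rose (52.6%) and 0 fell, with a median of 0.18. LAPTM4B, a transmembrane protein of late endosomes and lysosomes, had 126, 133 and 120 CPM in KO+FN, 128, 140 and 125 CPM in KO and 62.4, 64.1 and 76.5 CPM in WT. TPCN1, a lysosomal cation channel, had 38.8, 47.4 and 39.5 CPM in KO+FN, 36.7, 41.0 and 39.4 CPM in KO and 20.2, 20.8 and 18.8 CPM in WT. Both were nearly 2-fold higher in KO, with log2 fold changes of 0.96 (SE 0.08, adjusted p = 3.48e-07) and 0.97 (SE 0.09, adjusted p = 7.54e-07) in edgeR. NPC1, which exports cholesterol from lysosomes, rose by 0.49, and SLC17A5, the sialic acid exporter, by 0.55 on the log2 scale. Among pump subunits ATP6V1D rose by 0.45, ATP6V0E2 by 0.49, ATP6V1C1 by 0.26 and the accessory protein ATP6AP2 by 0.25.

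Lysosomal hydrolases went both ways, with 13 of 30 risen (43.3%) and 6 fallen (20%) in KO and a median log2 fold change of 0.17. HYAL1, a hyaluronidase, had 26.9, 34.1 and 30.8 CPM in KO+FN, 20, 30 and 25.7 CPM in KO and 2.51, 2.36 and 1.61 CPM in WT. FUCA1, an alpha-fucosidase, had 10.9, 11.1 and 12 CPM in KO+FN, 10.8, 10.3 and 11.4 CPM in KO and 2.77, 3.53 and 2.59 CPM in WT. Both were low in WT and rose 11.7-fold and 3.65-fold in KO (adjusted p = 2.05e-08 and 4.94e-08 in edgeR). IDS, the sulfatase deficient in Hunter syndrome, fell by 0.96 on the log2 scale (adjusted p = 4.60e-08 in edgeR). Among genes singled out after their values were seen, ACP5, an acid phosphatase, had the highest log2 fold change of the list at 5.21, and MANBA, a beta-mannosidase, and ASAH1, the acid ceramidase, had the lowest at -2.31 and -1.94.

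In the list of autophagosome formation 8 of 19 fell (42.1%) and 5 rose (26.3%) in KO, with a median log2 fold change of -0.19, and all genes likewise had more falls than rises. VMP1, an endoplasmic reticulum protein needed for autophagosome formation, had 95.8, 88.6 and 91.2 CPM in KO+FN, 109, 106 and 104 CPM in KO and 185, 182 and 202 CPM in WT. C9orf72, part of a complex that regulates autophagy, had 9.63, 10.4 and 10.2 CPM in KO+FN, 11.5, 11.2 and 11.1 CPM in KO and 17.9, 16.8 and 18.8 CPM in WT. Both were lower in every edited library, by 0.84 (SE 0.06, adjusted p = 5.70e-08) and 0.66 (SE 0.08, adjusted p = 2.24e-05) on the log2 scale in KO in edgeR. ATG4A, an ATG8 protease, rose by 0.50 and WDR45, a PI3P reader of the WIPI family, by 0.72. WIPI1 and WDR45 thus changed in opposite directions.

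For cargo receptors and fusion proteins 10 of 24 rose (41.7%) and 3 fell (12.5%) in KO, with a median log2 fold change of 0.12. VAMP8, the lysosomal SNARE that pairs with syntaxin 17 in fusion with autophagosomes, had 119, 110 and 101 CPM in KO+FN, 99.1, 97.5 and 106 CPM in KO and 16.9, 20.1 and 21.1 CPM in WT. It rose 5.21-fold in KO (log2 fold change 2.38, SE 0.09, adjusted p = 1.48e-10 in edgeR), far more than any of the 38 genes. TECPR1, an autophagosome tethering factor, rose by 0.62, CALCOCO2, the receptor NDP52, by 0.45 and VPS11, a subunit of the tethering complexes, by 0.28 on the log2 scale.

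In the list of mTORC1 and TFEB control 12 of 30 rose (40%) and 7 fell (23.3%) in KO, with a median log2 fold change of 0.20. PRKAA2, a catalytic subunit of the energy sensor AMPK, had 12.5, 19.5 and 17.9 CPM in KO+FN, 12.9, 17.9 and 17.8 CPM in KO and 2.81, 2.76 and 2.4 CPM in WT. SESN3, a sestrin that restrains mTORC1, had 4.21, 3.23 and 3.31 CPM in KO+FN, 5.24, 2.7 and 4.06 CPM in KO and 1.11, 0.942 and 0.952 CPM in WT. DDIT4, another brake on mTORC1, had 100, 98.1 and 101 CPM in KO+FN, 77.7, 85.4 and 96.3 CPM in KO and 50.9, 54.1 and 47.6 CPM in WT. All 3 were higher in every edited library than in WT, with log2 fold changes in KO of 2.61, 2.0 and 0.77 (adjusted p = 2.60e-07, 1.53e-05 and 2.45e-06 in edgeR). RRAGB, a Rag GTPase that brings mTORC1 to lysosomes, rose by 0.75. The 7 genes that fell, named after their values were seen, were MITF (-0.63), RPTOR (-0.54), ZKSCAN3 (-0.41), TSC1 (-0.37), FNIP1 (-0.35), PRKAA1 (-0.32) and FOXO1 (-0.18).

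**Figure D5:**
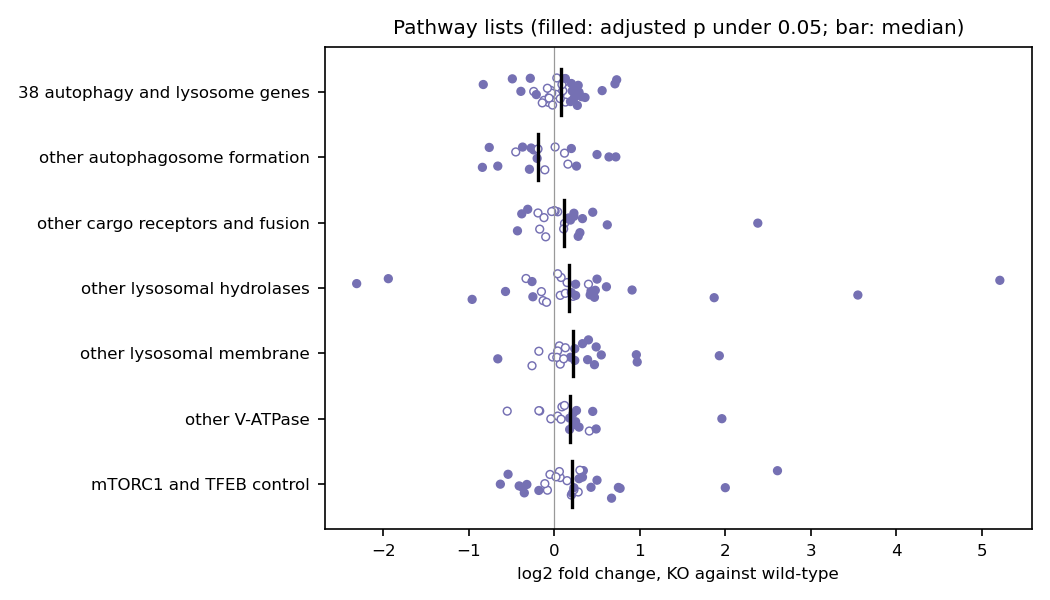
Log2 fold change of KO against WT for the 38 genes (top) and 6 further lists, each point 1 tested gene, filled where the adjusted p was under 0.05 in edgeR, with a black bar at the median of the list. The 38 genes keep within -0.83 and 0.73, whereas hydrolases reach 5.21 and -2.31; only autophagosome formation has a median under 0.

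On fibronectin, with the clone as a block, 15 of these genes were called in edgeR, and all 15 are named here after their values were seen. Of the hydrolases, SGSH and ARSA, sulfatases that degrade heparan sulfate and sulfatide, rose by 0.38 and 0.40 (adjusted p = 0.0139 and 0.0482 in edgeR). NAGLU, which acts on heparan sulfate, rose by 0.35 (adjusted p = 0.0220 in edgeR) and ACP5 by 0.49 (adjusted p = 0.0405 in edgeR). GNPTG, part of the enzyme that makes the mannose 6-phosphate tag, rose by 0.37 (adjusted p = 0.0192 in edgeR) and CLN3, a lysosomal membrane protein, by 0.28 (adjusted p = 0.0490 in edgeR). The pump subunits ATP6V1F, ATP6V0E2 and TCIRG1 rose by 0.29, 0.33 and 0.37 on the log2 scale, and among regulators of mTORC1 the partners MLST8 and AKT1S1 rose by 0.45 and 0.25 and TSC2, which restrains it, by 0.26. VMP1 fell by 0.23, RB1CC1, the FIP200 scaffold of the ULK complex, by 0.28 and WDFY3, an adaptor for protein aggregates, by 0.32. TOLLIP, a ubiquitin-binding receptor (0.29), TAX1BP1, a cargo receptor (-0.20), and ATP6V0B (0.20), which were among the 2 smallest p-values of their lists in the fit without the block, were not called with it. The GC content described above applies to this fit as well.

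Of the 6 genes with CACGTG in the promoter window, 4 rose (LAMP1, ATG3, ATG14 and ATP6V0D1), 1 fell (MCOLN1) and 1 was not called (GAA) in KO against WT. Of the 27 with a window and without those letters, 8 rose, 3 fell and 16 were not called. Genes without a window are in neither count: HEXA and PSAP, which rose in KO, LAMP2, which fell, and UVRAG and ATP6V1A, which were not called. In KO+FN against WT the counts were 4 risen, 0 fallen and 2 not called with the letters, and 11 risen, 4 fallen and 12 not called without them. How often all tested genes with or without those letters rose or fell is not given here. Whether 4 of 6 stands out therefore cannot be told, and an effect of TFEB or TFE3 on these genes was not tested. LAMP1 held 6 copies in its window and GRN held 0, and whether copy number goes with the change in mRNA was not tested. In the other lists 24 of 114 windows (21.1%) held CACGTG.

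In the authors' deposited table of KO against WT 15 of the 38 genes were risen and 5 fallen, and 19 of these calls were shared with those above, ATG13 being the other one. That table called 6591 of 19950 genes (33.0%), a wider set than the 13802 tested here. For KO+FN against WT the authors' deposited table had 17 risen and 5 fallen, of which 21 were shared, with GAA called there and ATG13 and ATG2B called here alone. Of all genes in it, 7226 of 20035 (36.1%) were called. For KO+FN against KO the authors' deposited table called SQSTM1, GAA and GRN as risen (log2 fold changes 0.25, 0.36 and 0.34) among 126 of 19986 genes (0.630%).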

How the data were processed

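RNA libraries were made with a stranded mRNA kit per the labels, and the tools named in the submitters' processing notes are the aligner STAR and the counting program HTSeq, on build hg19 (GRCh37). Neither their versions nor the strand mode used for counting are given in the sources used here, so reads from overlapping or antisense genes cannot be told apart. The authors deposited raw counts per gene symbol and FPKM, which scales counts by depth and gene length. In each library FPKM was proportional to counts over length within 0.0495% to 0.0971% at the 99th percentile of 10723 genes. The authors also deposited tables of their comparisons with a log2 fold change and p-values. The authors' tables, per the file headers, also hold a signal per gene, the mean of normalized counts, which was not used here. Libraries of a group differed by more than sampling noise (chi-square per degree of freedom 5.37 to 21.8 within groups), and 0 value columns were left without a sample.

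Counts were tested with edgeR 4.0.16 in R 4.3.3: filterByExpr (minimum count 10, total 15), TMM scaling, 1 quasi-likelihood fit of all 9 libraries with robust dispersion, and Benjamini-Hochberg adjustment over all 13802 genes, called at an adjusted p under 0.05. SEs come from that fit. CPM are TMM-scaled, and groups are given as mean ± SD over 3 libraries or by library. The clone block and the clone test used the 6 edited libraries and 13257 genes. The titles give KO+FN and KO the same line numbers. Their deviations from group means correlated at r = 0.305, 0.446 and 0.501 within a line and -0.455 to 0.046 between lines, over 10093 genes averaging 5 CPM or more, so the lines were treated as pairs. The procedure was also run on simulated data with 200 changed genes, and the outcome is not given here. The simulation gave all genes the same spread and held no GC trend, so it cannot show how reliable the calls above are.

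GC content came from the longest coding transcript of each gene in GENCODE and was found for 88.1% of tested genes and all 38 members. Promoter letters came from RefSeq. Alternatives were DESeq2 1.42.0, its size factors in edgeR, no low-count filter, only the groups compared, leaving out each library, the clone block and a GC correction, of which the GC correction and the block without each clone were added after seeing the data. Members called in any comparison have the value of every library in the text, and in each other list the 4 smallest p-values in KO against WT and the 2 smallest on fibronectin (fit of all libraries) were named, except 1 hydrolase that is not reported here. The members and gene lists were chosen with earlier results of these data known.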

Additional observations from a re-analysis of the deposited data

How the results depend on the processing

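Against wild-type the number of genes called moved little with the processing, but the genes called were not all the same. A call was kept in all 14 alternatives for 12 of 19 genes in KO and 17 of 23 in KO+FN. With the GC correction, 10 of the 23 in KO+FN had a log2 fold change that moved by over 1.5 times. KO against WT called between 18 and 21 of the 38 genes under the other scalings, filters, fits and tests, and 15 to 21 when 1 library was left out. KO+FN against WT called 22 to 24, and 19 to 24 when 1 library was left out. No fold change of a called gene changed sign, and the median of all genes moved by under 0.1 on the log2 scale. The fibronectin comparison depended on the analysis. Of the 38 genes, KO+FN against KO called 0 in the fit of all libraries, 2 (2 risen) without a low-count filter, 4 (4 risen) with the clone as a replicate block, 3 (3 risen) with that block without clone 21, 3 (3 risen) without clone 22, 0 without clone 23 and 5 (3 risen, 2 fallen) with DESeq2. Leaving out each library gave 0 to 2 (0 to 2 risen), and the GC correction gave 0 with or without the block. Shares of all genes are given above for the fit of all libraries, the block and the block with GC correction. The other counts have no such share beside them. The clone test called 0, and 0 to 3 when 1 library was left out. DESeq2 and edgeR differ in their model of the spread, and why they part here was not tested. Counts limit TFEB and ATG10 most, at 68 to 198 and 117 to 147 counts per library.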
